A study of Mus musculus with 6 samples.

Results

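The 7 genes described here belong to 1 regulatory circuit: the estrogen-related receptor genes Esrra, Esrrb and Esrrg, the coactivator genes Ppargc1a and Ppargc1b, and the mitochondrial biogenesis genes Nrf1 and Tfam. They were taken by name from the deposited table, which gave 7 genes with 1 row each out of 31469 rows. The table covers 6 RNA sequencing libraries of neurons that express parvalbumin, collected from lumbar 4 dorsal root ganglia of mice. The 3 wild-type libraries and the 3 knockout libraries came from C57BL/6 mice at postnatal day 21. In the knockout, Dicer, the ribonuclease that matures microRNAs, was deleted with a Cre recombinase driven by parvalbumin, so deletion is limited to cells that have turned on that gene. The labels do not say whether the wild-type mice carried Cre or floxed alleles, how the cells were isolated, or whether animals were pooled. Nor do they say that replicates were separate animals, though the sex-linked transcripts Xist and Ddx3y set replicate 3 of each group apart from replicates 1 and 2. Each p-value reflects the spread among these libraries, part of which may be technical.

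Estrogen-related receptors (ERRs) are orphan nuclear receptors that bind DNA without a known natural hormone and are active when a coactivator is present. The PGC-1 proteins, encoded by Ppargc1a and Ppargc1b, are those coactivators, and together with ERRs they turn on genes of the citric acid cycle, the respiratory chain and fatty acid oxidation. Nuclear respiratory factor 1 (Nrf1) binds promoters of many of the same genes, and Tfam is a packaging and transcription factor of mitochondrial DNA. In the spinal cord, Esrrg is a known marker of gamma motor neurons, which innervate muscle spindles, the organs that proprioceptive sensory neurons read out.

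Levels are in TPM, transcript abundances that sum to 1000000 in each library, which are scaled by transcript length and so can be compared between genes. A gene was called when limma's adjusted p over all 13787 tested rows was below 0.05. The number of rows at 1 TPM or more ranged from 13237 to 13960 per library; TPM keeps no sequencing depth, so the depth is unknown. Dicer1 was at 26.0 to 48.7 TPM in wild-type libraries and at 20.8 to 23.96 TPM in knockout libraries, which is -0.68 on the log2 scale (adjusted p = 0.104 by limma) for a whole-gene value that does not isolate the deleted part. The proprioceptor markers Pvalb, Runx3, Ntrk3 and Etv1 were present in all 6 libraries. Their summed level was 793 to 846 TPM in wild type and 401 to 556 TPM in knockout. Of the 4, 3 were called lower, beside 3.17% of all tested rows. Markers of other sensory neurons moved as well: of 8 listed, 5 were tested, Ret was called higher (107 to 203 TPM on average, limma adjusted p = 0.0433), Tac1 was called lower (log2 difference -3.57, limma adjusted p = 0.0128), and Scn10a was at 0 to 7.44 TPM in wild type and 13.4 to 17.1 TPM in knockout without passing. Their summed level was 218 to 402 TPM in wild type and 295 to 425 TPM in knockout, and the part of other neuron types in the results that follow was not tested. In bulk libraries, fewer cells of a type and less RNA per cell cannot be told apart. Satellite glia markers were present too: the 8 listed genes, Fabp7 being the most abundant, summed to 720 to 1615 TPM in wild type and 209.7 to 714 TPM in knockout. Replicate 3 of each group lacked Xist (0.06 TPM or less) and expressed the Y-linked Ddx3y, unlike replicates 1 and 2.

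The upstream sequences of Esrrb and Esrrg are shown first, because these are the receptor genes whose transcripts fell. Each is the 250 bases before a RefSeq start site (GRCm38.p6), chosen as the most upstream start whose window holds no annotated exon, and capitals mark CpG pairs. The Esrrb window is chr12:86360867-86361116 and the Esrrg window is chr1:187651508-187651757, both on the plus strand.
Esrrb: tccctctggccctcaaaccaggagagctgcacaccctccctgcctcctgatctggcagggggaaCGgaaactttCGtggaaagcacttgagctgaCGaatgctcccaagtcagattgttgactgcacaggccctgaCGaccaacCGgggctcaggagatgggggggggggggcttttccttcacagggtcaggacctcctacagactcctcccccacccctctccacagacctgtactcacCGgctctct
Esrrg: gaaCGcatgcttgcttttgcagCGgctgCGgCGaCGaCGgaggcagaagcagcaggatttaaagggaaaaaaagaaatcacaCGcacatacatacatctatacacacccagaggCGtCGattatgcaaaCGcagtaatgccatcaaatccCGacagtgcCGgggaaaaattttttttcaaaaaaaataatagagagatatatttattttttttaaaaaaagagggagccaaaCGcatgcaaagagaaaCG
The Esrrb window holds 60.8% G and C and 6 CpG pairs, and the Esrrg window 41.6% and 14. The median over 32851 RefSeq windows was 52.4% and 6 CpG pairs. Esrrb has 2 listed start sites and Esrrg has 4, and the deposited values do not separate them.

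Windows of 300 bases, from 250 before to 50 after a start site, were searched on both strands for an extended ERR element (TNAAGGTCA), for the short ERR site inside it (AAGGTCA) and for the palindromic NRF1 element. RefSeq windows matched 6 of the 7 genes, with 11 windows in all, and 0 of the 11 held any of the 3 motifs. Over all 32851 windows the shares were 1.28%, 4.72% and 4.6%. RefSeq windows did not cover every listed gene. Of the 15 listed pathway genes that passed the test in this comparison, 3 held a match. They are printed because they are the called genes whose start regions carry these letters, with the match in capitals and written along the strand of the gene. The first 3 lines are ERR motifs and the last is the NRF1 element. The windows are chr9:50603800-50603823 and chr9:50603909-50603938 for Sdhd (minus strand), chr11:6292155-6292181 for Ogdh (plus strand) and chr19:43524834-43524855 for Got1 (minus strand).
Sdhd, extended element on the opposite strand: ggttgtagagTGACCTTGAgccct
Ogdh, short ERR site on the opposite strand: gacacggcgcTGACCTTggtgcctgcg
Got1, short ERR site: cccagAAGGTCAggaggttgtc
Sdhd, NRF1 element: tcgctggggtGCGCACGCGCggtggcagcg
The Sdhd ERR match begins 36 bases after the start site, the Ogdh match 5 bases before it and the Got1 match 245 bases before it. Listed genes that were tested and did not pass held matches too. The short ERR site was in Rxra, Mef2c, Twnk, Acadm, Ckmt1, Syt2, Nr6a1 and Rxrg. The NRF1 element was in Sucla2, Sdha, Uqcrc1, Atp5c1 and others. These are matches of letters and not measured binding.

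Of the 3 receptor genes, Esrrg and Esrrb fell in the knockout and Esrra did not pass the test. Over all 7 genes 2 were called lower, 0 were called higher and 5 did not pass, where 5.03% of tested rows were called in either direction, 3.17% lower and 1.86% higher. All 7 genes passed the filter of a mean of 1 TPM, and the lowest value of any of them in any library was 1.55 TPM. All 7 differences were below 0, as were 55.0% of the differences over all tested rows. The groups did not overlap for 4 of the 7 (Esrrb, Esrrg, Ppargc1b and Tfam), and 17.1% of tested rows were lower in knockout without overlap (11.8% were higher).

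Esrrg, on chromosome 1 (187608791 to 188214885, GRCm38, plus strand), encodes the receptor ERR gamma and was the most abundant of the 7 genes in wild type. Its level was 174, 138 and 148 TPM in wild-type replicates 1, 2 and 3, and 74.8, 52.6 and 56.0 TPM in the knockout replicates. The highest knockout library lay well below the lowest wild-type library. Mean levels of 153 ± 18.6 and 61.1 ± 11.97 TPM (SD, n = 3 each) put wild type 2.51 times higher. On the log2(TPM + 1) scale the difference was -1.32 (SE 0.16, 95% interval -1.68 to -0.96, limma adjusted p = 0.00403). Of the 2299 tested rows within 2-fold of its mean level, 0.652% had a difference at least as negative. The call held in all 15 other settings, including a satellite glia covariate (-1.24, adjusted p = 0.0448), with adjusted p from 0.00317 to 0.0448.

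Esrrb, on chromosome 12 (86361117 to 86521628, plus strand), encodes ERR beta and was the least abundant receptor gene. It was at 9.61, 12.2 and 9.87 TPM in wild type and at 1.89, 1.55 and 3.72 TPM in knockout. Every knockout value was below every wild-type value, and knockout replicate 3 was the highest of its group. Means of 10.6 ± 1.41 and 2.39 ± 1.17 TPM (SD, n = 3 each) put wild type 4.42 times higher. The log2 difference was -1.82 (SE 0.30, 95% interval -2.49 to -1.15, limma adjusted p = 0.013), which ranked 96th from the most negative of 13787 rows, while Esrrg ranked 240th. Esrrb lies 18166114 bases from Dicer1 on the same chromosome. Without knockout replicate 1 the difference was -1.73 and the call was lost (adjusted p = 0.0592), and with the satellite glia covariate it was -1.65 (adjusted p = 0.0928). Without knockout replicate 3 it was -2.08 (adjusted p = 0.0118).

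Esrra, on chromosome 19 (6910977 to 6921813, minus strand), encodes ERR alpha, the family member best known as a partner of PGC-1 proteins. Its levels were 12.7, 17.2 and 12.8 TPM in wild type and 12.3, 9.43 and 12.8 TPM in knockout. The groups overlapped, and wild-type replicate 2 stood above the other 5 libraries. Mean levels were 14.2 ± 2.58 in wild type and 11.5 ± 1.81 TPM in knockout (SD, n = 3 each), with a log2 difference of -0.28 (95% interval -0.75 to 0.19, limma adjusted p = 0.448). The interval does not reach the size of the Esrrg or Esrrb difference. In the annotation, exons of Esrra share 73 bases with exons of Trmt112 on the opposite strand and 91 with Mir6990, and the labels do not say whether reads were counted by strand.

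**Figure D1:**
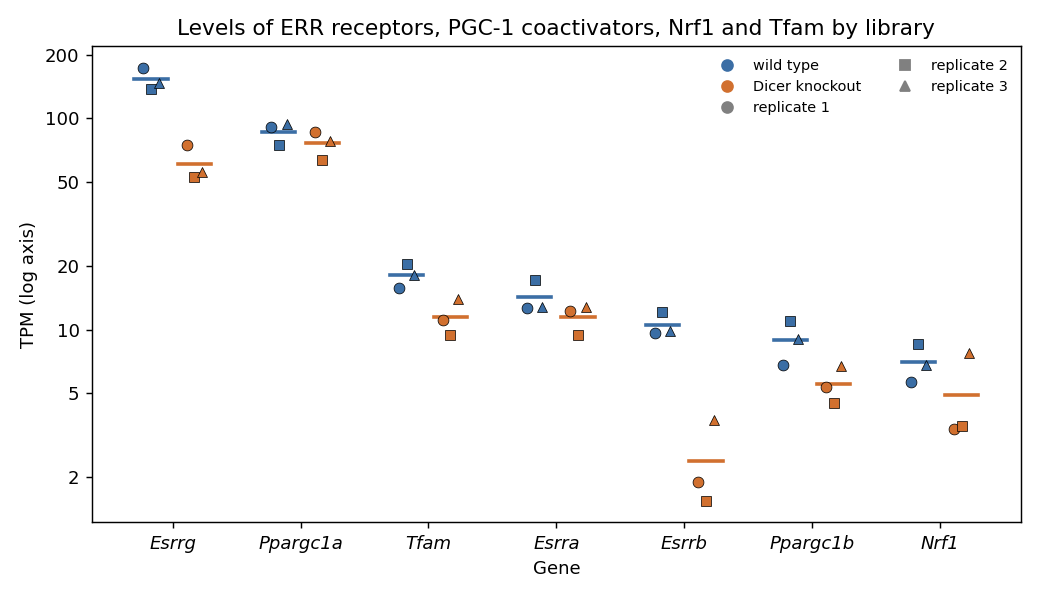
TPM (log axis) of the 7 genes in each library, ordered by wild-type mean; blue marks wild type, orange the Dicer knockout, marker shapes the replicates and bars the group means (n = 3 each). The knockout points of Esrrg (52.6 to 74.8 TPM) and Esrrb (1.55 to 3.72 TPM) lie below all wild-type points, while those of Esrra and Ppargc1a overlap them.

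Added together, the 3 receptor genes gave 196, 168 and 170.2 TPM in wild-type libraries and 88.9, 63.5 and 72.5 TPM in knockout libraries. The summed level was thus 178 ± 15.9 against 74.99 ± 12.9 TPM (SD, n = 3 each), without overlap, and most of it was Esrrg in every library. Esrrg made up 82.5% to 88.6% of the sum in wild type and 77.2% to 84.1% in knockout, ranges that overlap. The Esrra share was 6.46% to 10.2% in wild type and 13.8% to 17.6% in knockout, without overlap. The Esrrb share was 4.89% to 7.26% in wild type and 2.13%, 2.44% and 5.13% in knockout, where replicate 3 reached into the wild-type range. These shares are taken within a library and do not depend on the scaling between libraries. They were chosen with the member differences known and are given with no test.

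**Figure D2:**
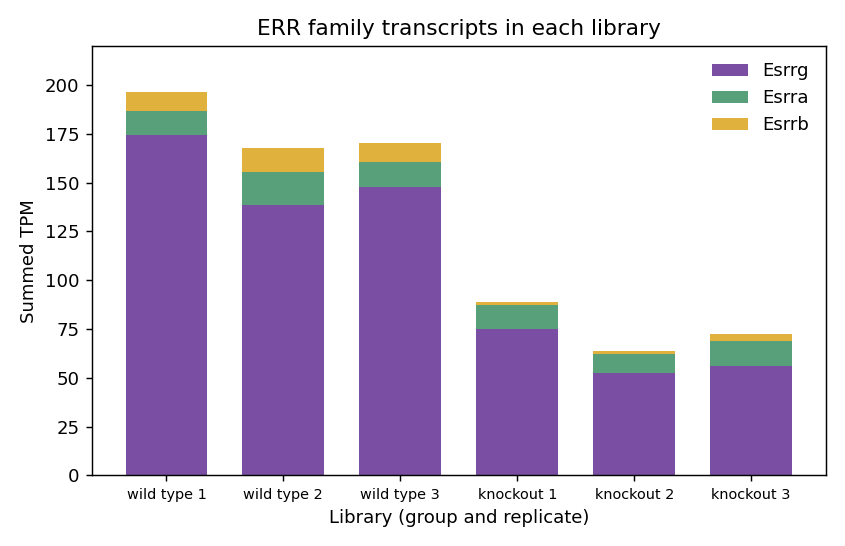
Summed TPM of Esrrg, Esrra and Esrrb in each library, with 1 bar per library and colours for the genes. Bars reach 168 to 196 TPM in wild type and 63.5 to 88.9 TPM in knockout, and Esrrg fills most of each bar.

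Ratios between receptor genes showed the same measurements within each library. Esrrg exceeded Esrra by 13.7, 8.05 and 11.5 times in wild type and by 6.10, 5.57 and 4.38 times in knockout. Esrra and Esrrb were close in wild type, with Esrra 1.32, 1.41 and 1.29 times as high, and far apart in knockout, with Esrra 6.49, 6.08 and 3.44 times as high. Neither of these ratios overlapped between the groups. Esrrg over Esrrb did overlap, at 18.1, 11.4 and 14.95 in wild type and 39.6, 33.9 and 15.1 in knockout, where replicate 3 lay within the wild-type range. With 3 libraries a group the smallest exact permutation p is 0.1, and no p is given for these ratios.

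Neither PGC-1 coactivator gene passed the test. Ppargc1a, on chromosome 5 (51454250 to 51567726, minus strand), encodes PGC-1 alpha, the coactivator that responds to energy demand. It was at 90.8, 75.3 and 93.7 TPM in wild type and at 86.6, 63.7 and 78.1 TPM in knockout. The groups overlapped, and replicate 2 was the lowest library in each of them. The log2 difference was -0.19 (95% interval -0.53 to 0.15, limma adjusted p = 0.486), an interval that does not reach the Esrrg difference. With the satellite glia covariate it was 0.03 (adjusted p = 0.941).

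Ppargc1b, on chromosome 18 (61298136 to 61400431, minus strand), encodes the related coactivator PGC-1 beta and was at a much lower level. Wild-type libraries had 6.78, 10.9 and 8.99 TPM and knockout libraries had 5.36, 4.49 and 6.76 TPM. The groups did not overlap, but the lowest wild-type value and the highest knockout value were 6.78 and 6.76 TPM. The log2 difference was -0.59 (95% interval -1.17 to -0.02, limma adjusted p = 0.2), and its unadjusted p was 0.0454. Ppargc1a made up 87.3% to 93.1% of the summed level of both genes in wild type and 92.0% to 94.2% in knockout.

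Relative to Ppargc1a, Esrrg changed places. Esrrg was 1.92, 1.84 and 1.58 times as abundant as Ppargc1a in the wild-type libraries and 0.863, 0.825 and 0.717 times as abundant in the knockout libraries. The receptor transcript was thus above the coactivator transcript in each wild-type library and below it in each knockout library.

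Tfam and Nrf1 were lower on average in knockout libraries and did not pass the test. Tfam, on chromosome 10 (71225464 to 71238280, minus strand), encodes the mitochondrial DNA packaging and transcription factor. It was at 15.8, 20.5 and 18.2 TPM in wild type and at 11.1, 9.43 and 13.9 TPM in knockout. The groups did not overlap, and the log2 difference was -0.63 (SE 0.20, 95% interval -1.08 to -0.17, unadjusted p = 0.0123, limma adjusted p = 0.103). Over the 15 other settings it lay between -0.77 and -0.51 and was never called (adjusted p from 0.0833 to 0.321).

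Nrf1, on chromosome 6 (30047988 to 30153458, plus strand), was the least abundant of the 7 in wild type. It was at 5.63, 8.59 and 6.81 TPM in wild type and at 3.38, 3.50 and 7.75 TPM in knockout. Knockout replicates 1 and 2 were under every wild-type library, while knockout replicate 3 exceeded 2 of the 3. The log2 difference was -0.51 (SE 0.32, 95% interval -1.24 to 0.23, limma adjusted p = 0.381), and without knockout replicate 3 it was -0.83 (adjusted p = 0.152).

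**Figure D3:**
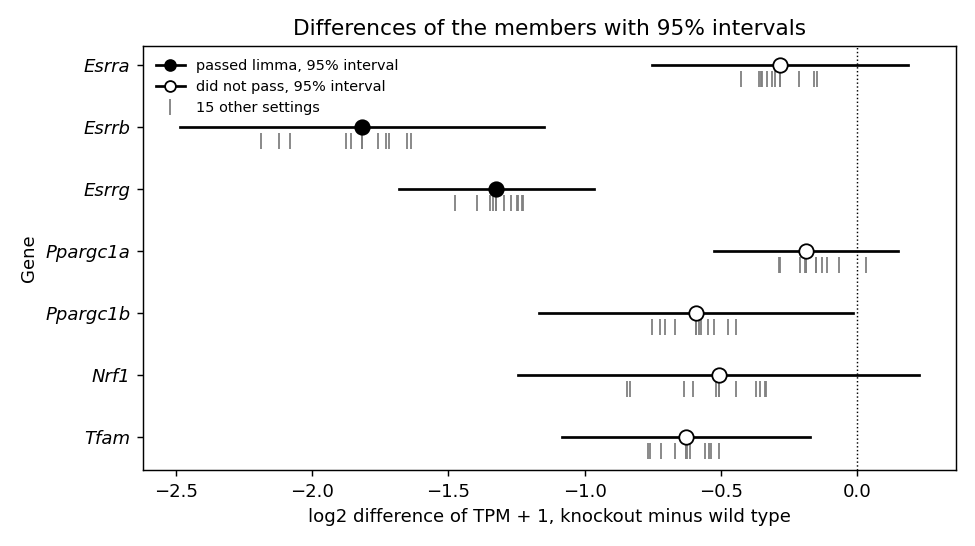
Knockout minus wild-type differences in log2(TPM + 1), with 95% intervals (n = 3 each); filled points passed limma, open points did not, and grey ticks are the 15 other settings. Esrrb (-1.82) and Esrrg (-1.32) stand apart from the other 5 genes, which lie between -0.63 and -0.19.

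In wild type the order of mean levels was Esrrg, Ppargc1a, Tfam, Esrra, Esrrb, Ppargc1b and Nrf1. Esrrg and Ppargc1a each stood clear of the next gene, whereas the ranges of Tfam and Esrra overlapped, as did those of Esrrb and Ppargc1b and those of Ppargc1b and Nrf1. In knockout the order of means was Ppargc1a, Esrrg, Esrra, Tfam, Ppargc1b, Nrf1 and Esrrb. Esrra and Tfam were at 11.49 and 11.48 TPM there, and the ranges of Ppargc1a and Esrrg overlapped. Nrf1 and Esrrb also overlapped in range, with Esrrb at the bottom by its mean.

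Within a group, libraries did not rank alike for all genes. Wild-type replicate 2 was the highest wild-type library for 5 of the 7 genes (Esrra, Esrrb, Ppargc1b, Nrf1 and Tfam) and the lowest for the abundant pair Esrrg and Ppargc1a. Knockout replicate 3 was the highest knockout library for the same 5 genes, and knockout replicate 2 was the lowest for 6 of the 7 genes, all but Nrf1. Wild-type replicate 2 also had the lowest summed satellite glia level of its group (720 TPM), and knockout replicate 3 the highest of its group (714 TPM). The part of glial RNA in these within-group ranks was not tested.

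Rows that followed the called receptors most closely over the 6 libraries were taken from 9301 other tested rows with a symbol and a mean of at least 5 TPM. For Esrrg these were Pkp4, Ttc7b and Nkiras2 (Pearson r 0.999, 0.989 and 0.988), and for Esrrb they were St3gal5, Slc35f3 and Amd2 (r of 0.997 for each). Pkp4 encodes a junctional plaque protein and St3gal5 the enzyme that makes the ganglioside GM3. Pkp4 was at 37.6 to 41.1 TPM in wild type and 23.3 to 27.9 TPM in knockout, and St3gal5 at 64.6 to 75.4 and 25.2 to 41.0 TPM. All 6 points of such a correlation share the group difference, and 118 rows reached an r of 0.95 with Esrrg and 308 with Esrrb, so these names describe a crowded end of the distribution.

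The other genes of the circuit were grouped in lists by function. Of 13 tested ERR coregulator genes, which encode coactivators and corepressors of nuclear receptors, 0 passed limma. Of the 13, 2 were lower and 1 was higher in knockout without overlap, beside 17.1% and 11.8% of all tested rows. The 13 genes had a median log2 difference of -0.14, against -0.05 over all tested rows. Ncor1, a corepressor and the most abundant of them, was at 84.0 ± 5.09 and 86.9 ± 22.5 TPM (SD, n = 3 each). Nrip1, the corepressor RIP140, was at 29.2 to 41.4 TPM in wild type and 38.4 to 56.3 TPM in knockout, and Pprc1, the third PGC-1 family gene, at 6.49 to 7.46 and 6.95 to 7.28 TPM. Nrip1 and Pprc1 were named for their role and not by the naming rule.

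Among 18 tested regulators of mitochondrial biogenesis, Myc, a growth-promoting transcription factor, rose and 17 did not pass. Over all tested rows 1.86% were called higher. Myc was at 11.2, 9.14 and 10.8 TPM in wild type and at 23.7, 28.3 and 17.03 TPM in knockout, without overlap (log2 difference 1.05, SE 0.22, limma adjusted p = 0.0292). The list's median was -0.21, and Mef2a, an activity-dependent factor and the most abundant member, was at 149 ± 13.9 and 116 ± 13.2 TPM (SD, n = 3 each; limma adjusted p = 0.127). Of 16 genes that replicate, transcribe or process mitochondrial DNA and RNA, 0 passed limma. Of the 16, 2 were lower and 0 were higher in knockout without overlap, beside 17.1% and 11.8% of all tested rows. The median of the 16 was -0.04, and Slirp, which stabilises mitochondrial messenger RNA, was at 219 ± 39.3 and 292 ± 77.0 TPM. The 13 transcripts that mitochondrial DNA itself encodes were not analysed here, since 0 of them were found by name. Among single-library omissions the Myc call was lost when wild-type replicate 2 or 3 or knockout replicate 1 or 2 was left out, and its difference lay between 0.90 and 1.28 over the other settings.

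Of 15 tested genes of the citric acid cycle, 2 were called lower and 13 did not pass. All 15 had differences below 0, with a median of -0.31. Sdhd, a membrane anchor of succinate dehydrogenase, fell from 405 ± 54.4 to 244 ± 23.1 TPM (SD, n = 3 each; log2 difference -0.72, limma adjusted p = 0.0169). Ogdh, a subunit of the oxoglutarate dehydrogenase complex, fell from 179.8 ± 22.9 to 116 ± 15.1 TPM (log2 difference -0.63, limma adjusted p = 0.0408). Mdh2, the mitochondrial malate dehydrogenase and the most abundant member, was at 922 ± 41.1 and 786 ± 50.8 TPM (adjusted p = 0.206 by limma). The groups did not overlap for 9 of the 15 genes, all lower in knockout. Among the 1858 tested rows whose mean reached 100 TPM, a level that most of these genes reach, 53.9% had a difference below 0, 5.71% were called lower and 24.5% were lower without overlap. The count of called members was 0 with the satellite glia covariate, with no intensity trend and without knockout replicate 1 or 2, 1 without wild-type replicate 2 or 3, and 3 without knockout replicate 3.

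Of 21 tested genes of the respiratory chain and ATP synthase, 5 were called lower and 16 did not pass. Differences were below 0 for 20 of the 21, with a median of -0.29. The exception, Uqcrb, was at 205 ± 63.1 TPM in wild type and 283 ± 13.8 TPM in knockout, with overlap (log2 difference 0.50, limma adjusted p = 0.144). Uqcrb was named as the exception and not by the naming rule. Among those called were Ndufb5, Ndufb9 and Ndufs1, which encode subunits of complex I, and the cytochrome c gene Cycs, whose product carries electrons. Ndufb5 was at 328, 423 and 333 TPM in wild type and at 178, 189 and 219.8 TPM in knockout, without overlap (log2 difference -0.88, SE 0.14, limma adjusted p = 0.011). Ndufb9 fell by 0.69, Ndufs1 by 0.59 and Cycs by 0.58 on the log2 scale. Atp5b, the catalytic subunit of ATP synthase and the most abundant member, was at 3784 ± 334 and 3108 ± 297 TPM (SD, n = 3 each; limma adjusted p = 0.203). The groups did not overlap for 14 of the 21 genes, beside 17.1% of all tested rows and 24.5% of those averaging 100 TPM or more, of which 3.17% and 5.71% were called lower. The count of members called lower was 0 with the satellite glia covariate, with no intensity trend and without knockout replicate 1. That count was 1 without wild-type replicate 2 or 3 or knockout replicate 2, and 4 and 6 without knockout replicate 3 and wild-type replicate 1. Without wild-type replicate 1, 1 member was also called higher. The replicate block left 3 of these members called.

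Fatty acid oxidation genes, classical ERR targets in muscle and heart, were spread to both sides of 0. Of 16 tested genes, 7 had differences below 0 and the median was 0.07. Over all tested rows 55.0% were below 0, the median was -0.05 and 3.17% were called lower. Only Slc25a20, the carrier that brings acylcarnitines into mitochondria, passed limma, falling from 49.7 ± 9.94 to 26.6 ± 1.94 TPM (SD, n = 3 each; log2 difference -0.86, adjusted p = 0.0286). Hadhb, a subunit of the trifunctional protein and the most abundant member, was at 260 ± 38.96 and 269.8 ± 14.5 TPM. Acadm, a textbook ERR alpha target named here for that role, was at 44.8 to 51.5 TPM in wild type and 42.0 to 60.2 TPM in knockout. Among single-library omissions the Slc25a20 call was lost without wild-type replicate 2 or 3 or knockout replicate 1 or 2 (adjusted p from 0.016 to 0.142 over all other settings).

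Of 12 tested genes in a mixed list of further ERR and PGC-1 targets, 4 were called lower, 0 higher and 8 did not pass, where 3.17% of all tested rows were called lower. The median was -0.59, against -0.05 over all tested rows. Fndc5, the precursor of the secreted peptide irisin and a PGC-1 alpha target in muscle, was at 82.5, 77.7 and 70.4 TPM in wild type and at 37.4, 33.1 and 39.9 TPM in knockout. The 2 sets of values were far apart (log2 difference -1.04, SE 0.13, limma adjusted p = 0.00454), and the call held in all 15 other settings. Got1, a transaminase of the malate-aspartate shuttle, fell by 0.80 and Sod2, the mitochondrial superoxide dismutase, by 0.60. Nr0b2, the small nuclear receptor SHP that represses ERRs and others, was at 5.46, 7.09 and 5.93 TPM in wild type and was listed at 1.41, 1.2 and 0 TPM in knockout (log2 difference -2.03, adjusted p = 0.0241 by limma). At a pseudocount of 0.1 the Nr0b2 difference was -3.42 and not called (adjusted p = 0.0859), and the call was lost in 8 of the 14 settings that gave a value. Slc25a4, the ADP/ATP carrier and the most abundant member, was at 2504 ± 293 and 2485 ± 73.8 TPM (SD, n = 3 each). Without wild-type replicate 2 or 3, or knockout replicate 1 or 2, 1 member of this list was called, and without wild-type replicate 1 there were 6.

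Of 4 genes that depend on PGC-1 alpha in parvalbumin interneurons of the forebrain, Pvalb itself, the calcium buffer that also marked these cells, passed the test. Over all tested rows 3.17% were called lower. Pvalb was at 25.1, 19.7 and 23.1 TPM in wild type and 4.02, 3.69 and 13.98 TPM in knockout (log2 difference -1.73, limma adjusted p = 0.0452). Of the other 3 genes, Syt2, a fast calcium sensor of transmitter release, was at 305 ± 33.1 and 213 ± 36.6 TPM (SD, n = 3 each; limma adjusted p = 0.0707). Cplx1, a regulator of vesicle fusion, was at 1784 ± 26.6 and 1774 ± 36.2 TPM, and Nefh, the heavy neurofilament subunit, at 4578 ± 365 and 3731 ± 143 TPM (adjusted p = 0.162 by limma). Of the 3 genes of this list with a RefSeq window, only Syt2 holds the extended ERR element, which 1.28% of all windows hold. The Pvalb call was lost in each single-library omission other than that of knockout replicate 3 (without which it was -2.28, adjusted p = 0.00441).

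**Figure D4:**
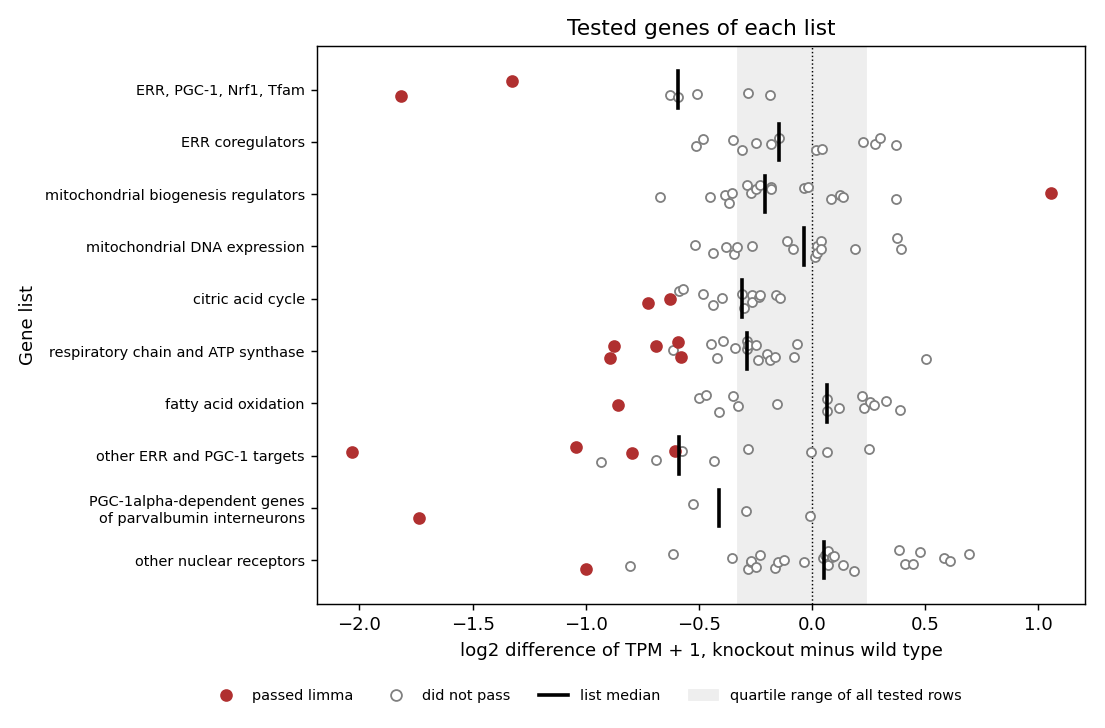
Knockout minus wild-type differences in log2(TPM + 1) of every tested gene in each list; red points passed limma, black bars are list medians and the grey band runs between the quartiles of all tested rows. Medians were -0.31 for the citric acid cycle and -0.29 for the respiratory chain, and 0.07 for fatty acid oxidation.

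Other nuclear receptor genes gave a comparison within the same protein family. Of 28 tested, Nr1d2, the clock repressor REV-ERB beta, fell from 39.6 ± 2.92 to 19.8 ± 5.48 TPM (SD, n = 3 each; log2 difference -0.999, limma adjusted p = 0.0322), 0 rose and 27 did not pass. Over all tested rows 3.17% were called lower and 1.86% higher. The list's median was 0.05. Thra, a thyroid hormone receptor gene and the most abundant of the list, was at 55.4 ± 2.82 and 72.7 ± 2.56 TPM (adjusted p = 0.0843 by limma, and 0.0436 with median-of-ratios rescaling). Esrrg, at 153 TPM in wild type, was above Thra, the most abundant receptor gene on that list. Without wild-type replicate 2 or 3 or knockout replicate 1 or 2, the Nr1d2 call was lost (adjusted p from 0.0248 to 0.186 over the other settings).

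Over the 9 lists with tested genes, 15 of 139 different genes were called (10.8%, beside 5.03% of all tested rows), of which 14 were lower and Myc was higher. Called lower were 10.1% of the listed genes, 3.17% of all tested rows and 5.71% of rows averaging 100 TPM or more. The lists were chosen with earlier results of these data known, so their share is no independent test. With single libraries left out, 13, 3 and 3 of the 15 stayed called without wild-type replicates 1, 2 and 3, and 1, 2 and 14 without knockout replicates 1, 2 and 3. With no intensity trend 2 stayed called, with no filter on low values 6, and in the 4 Xist-expressing libraries alone 3. With the mean log2(TPM + 1) of the 8 satellite glia markers as a covariate only Fndc5 stayed called. The summed TPM of these markers was not the covariate. It was 720 to 1615 TPM in wild-type libraries and 209.7 to 714 TPM in knockout libraries, without overlap. Taken singly, 2 of the 8 markers were lower in knockout without overlap, so the sum does not show that the covariate separated the groups. Over all rows, 141 were called with the same covariate, where 693 were called without it.

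**Figure D5:**
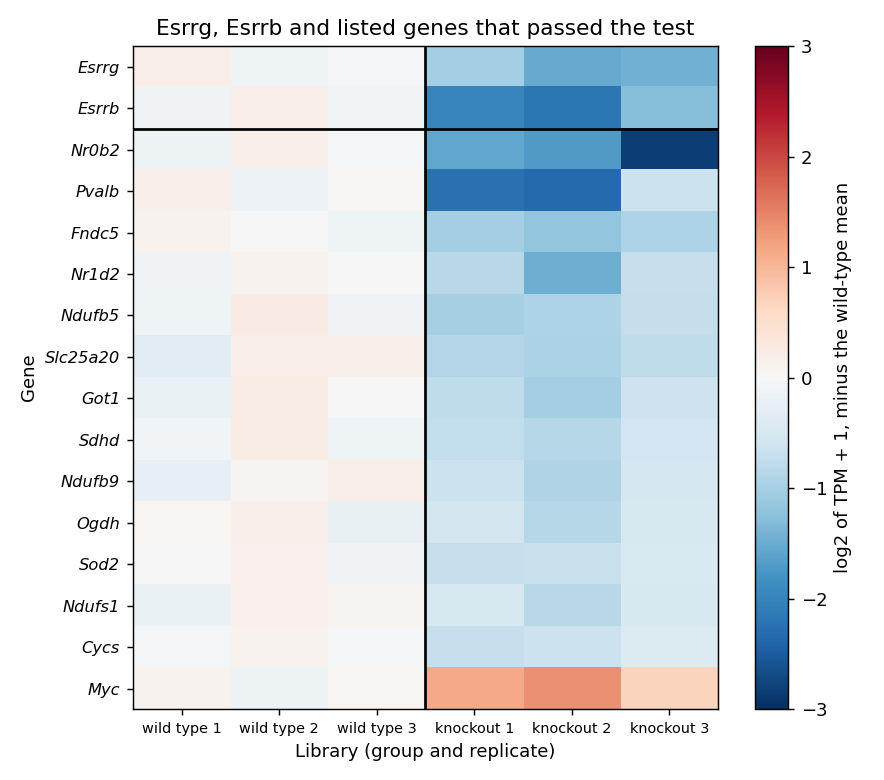
Each cell is the log2(TPM + 1) of 1 gene in 1 library minus the wild-type mean of that gene, for Esrrg, Esrrb and 14 of the 15 listed genes that passed limma; blue is lower and red is higher. All 3 knockout columns are on the low side for every gene shown but Myc. Most genes shown, Pvalb and Esrrb among them, are closest to wild type in knockout replicate 3, while Esrrg, Nr0b2 and Ndufs1 are closest in knockout replicate 1.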

How the data were processed

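RNA was measured in 6 libraries, 3 per genotype, grouped by their titles. Per the labels' protocols, RNA was extracted with the PicoPure kit and amplified as cDNA with an Ovation kit. The submitters' processing notes list RSEM 1.2.7, Bowtie2, cutadapt and the mm10 build; which gene annotation was used is not stated there. All values are TPM, deposited by the authors in 1 table whose libraries each sum to 1000000, so values are relative within a library and depth is not kept. Of its 31469 rows, 8441 have a uc identifier and no symbol.

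Rows averaging 1 TPM or more were fitted as log2(TPM + 1) in limma 3.58.1 (R 4.3.3), using its intensity trend with genotype as the only term, two-sided, with Benjamini-Hochberg adjustment over 13787 rows and a threshold of 0.05. Fold changes on this scale understate those of low genes. The fit was tested on simulated data. Large changes were mostly recovered there, small ones mostly missed, and false calls were on average somewhat more frequent than the threshold names. The simulated noise was independent between rows and libraries, so effects shared by a whole library were not covered. Named were the 7 genes, called list members (up to 5 per list, largest first), each list's most abundant member and the 3 rows most correlated with each called receptor; other names are stated as such, and 1 called list member is counted but not reported here by name. The members and lists were chosen with earlier results of these data known. Gene coordinates are those of GENCODE vM21 (GRCm38, called mm10 by UCSC) and sequences from RefSeq on GRCm38.p6. Dlst, Nr2c1 and Hbb-bt were not found by name, and 15 other settings were run, of which 1 was added after the data were seen. Python 3.11.15 and matplotlib 3.10.9 were used for sequences and figures.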

Additional observations from a re-analysis of the deposited data

How the results depend on the processing

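Esrrg kept its direction and call in all 15 other settings. Esrrb kept its direction in all 15 and its call in 13; it lost the call with the satellite glia covariate (-1.65) and without knockout replicate 1 (-1.73), and ranged from -2.08 to -1.64 over the single-library omissions. The 5 genes that did not pass stayed uncalled in every setting, and 1 direction changed, that of Ppargc1a with the satellite glia covariate (0.033); the cause was not tested. The count of called rows, 693, became 378 with no filter on low values (19535 rows tested), 141 with the satellite glia covariate and 225 with no intensity trend. In the 4 Xist-expressing libraries alone, a setting added after the data were seen, the count was 204. It ranged from 164 to 835 with single libraries left out, and was 325 and 265 without wild-type replicates 2 and 3 and 164 and 256 without knockout replicates 1 and 2. Median-of-ratios rescaling gave 375 higher and 385 lower rows, in place of 256 and 437.

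Genes with differences near 0 changed sign. Slc25a4 was at 0.0717 with median-of-ratios rescaling, at 0.0032 with the satellite glia covariate, and between -0.0646 and 0.0888 with single libraries left out. Hadhb was at -0.0708 with the satellite glia covariate, at -0.0173 in the Xist-expressing libraries and between -0.0582 and 0.159 with single libraries left out, and Ncor1 was between -0.161 and 0.219 there.

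Replicate numbers are shared between the groups, and whether they pair the libraries is not known. Deviations from the group means correlated at 0.0492, 0.0659 and 0.0382 for same-numbered libraries. Wild-type replicate 3 correlated more with knockout replicate 1 (0.0705), and the remaining pairs lay between -0.0976 and 0.0198. With 3 libraries a group, correlations this small cannot decide it. With the replicate block 529 rows were called, Esrrg was at -1.32 (adjusted p = 0.00557) and Esrrb at -1.82 (adjusted p = 0.0242), and Ogdh, Ndufs1, Cycs and Sod2 were no longer called. Summing rows of 1 name was not run, since each of the 7 genes has 1 row. The unknown depth limits the precision of genes near 1 TPM.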
